A study of Mus musculus with 11 samples.

Results

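The 9 complement genes C1qa, C1qb, C1qc, C1ra, C1s1, C2, C3, C4b and Cfb were followed in pancreas and epididymal adipose tissue of mice with obesity-related and alcohol-induced acute pancreatitis (OA-AP) and of control mice. They were taken by gene name, 1 row for each, from count tables that list 54532 genes for the pancreas and 46078 for adipose tissue. All mice were male, wild-type and 16 weeks old, of the strain C57BL/6 in the labels and C57BL/6J in the study's methods. Control mice (pancreas n = 2, adipose tissue n = 3) ate chow with 10 kcal% fat for 12 weeks and received 2 intraperitoneal saline injections 1 h apart. OA-AP mice (n = 3 for each tissue) ate a diet with 60 kcal% fat for 12 weeks and received ethanol at 2 g/kg in each of 2 injections 1 h apart. Tissue was collected 12 h after the first injection. Diet, ethanol and pancreatitis differed together between the groups, so their effects cannot be told apart. The labels do not say whether libraries of a group came from separate animals, and p-values measure the spread between these libraries.

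Complement is a cascade of plasma proteins that marks microbes, dying cells and debris for removal. In the classical pathway, C1q, built from the chains of C1qa, C1qb and C1qc, binds a target and activates the proteases C1r and C1s, encoded in the mouse by C1ra and C1s1. C1s cleaves C4 (here C4b) and C2 to form a C3 convertase. The alternative pathway forms another C3 convertase from C3 and factor B (Cfb), which is cleaved by factor D (Cfd, also called adipsin). Liver makes much of the circulating protein, while macrophages are a known source of C1q, and fibroblasts and adipocytes of several of the other components. Libraries were made from whole tissue, where fewer cells of a type and less RNA per cell cannot be told apart.

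Several of the genes lie side by side in the mouse genome (GRCm38, coordinates of the deposited pancreas table). On chromosome 4, minus strand, C1qb (chr4:136880129-136886187), C1qc (chr4:136889804-136893065) and C1qa (chr4:136895917-136898803) are 3616 and 2851 bases apart. On chromosome 6, C1ra (chr6:124512405-124523443, plus strand) and C1s1 (chr6:124530345-124542359, minus strand) are separated by 6901 bases. On chromosome 17, minus strand, C4b (chr17:34728380-34743882), Cfb (chr17:34856374-34862518) and C2 (chr17:34862604-34898265) belong to one stretch, with 85 bases between Cfb and C2, and C3 (chr17:57203970-57228136) lies apart. In the GENCODE M21 annotation, which gives all 9 genes the same ends, 79.5% of the exonic bases of Cfb and 42.8% of those of C2 also belong to the read-through gene Gm20547 on the same strand. Gm20547 itself had 0 to 1 counts in every library. By default featureCounts leaves out reads that could belong to more than 1 gene, and the setting used is not given in the sources used here. Had such reads been counted for each gene, Gm20547 would hold reads of C2, which had 714 to 2207 counts in adipose libraries. The levels of Cfb and C2 are therefore probably too low, by an unknown amount. For C1s1, 18.4% of the exonic bases are shared with Gm16567 on the opposite strand, which had 0 counts. Reads can also be shared with close copies of C4b, C1ra and C1s1. The copy C4a had 27 to 119 counts in adipose tissue and 0 to 5 in the pancreas, C1rb had 0 to 2 and C1s2 0 to 16 in any library.

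The sequence before the start is shown for 3 genes. These are C3, the most abundant of the 9 per length, C1qb and C1s1, a C1 protease. The share of C1qb among the C1q chains did not overlap between the groups in either tissue, a pattern chosen after its values were seen. It did not pass the exact permutation test (adjusted p = 0.28 in each tissue). C1s1 was not called between the groups in either tissue. Of the 9 genes, 5 had a promoter in the RefSeq table (GRCm38.p6), and the 250 bases before each start are given in the direction of the gene. They are chr17:57228137-57228386, chr4:136886201-136886450 and chr6:124542360-124542609, all on the minus strand. Capitals mark a match to the C/EBP motif TTGCNNAA on either strand.
C3: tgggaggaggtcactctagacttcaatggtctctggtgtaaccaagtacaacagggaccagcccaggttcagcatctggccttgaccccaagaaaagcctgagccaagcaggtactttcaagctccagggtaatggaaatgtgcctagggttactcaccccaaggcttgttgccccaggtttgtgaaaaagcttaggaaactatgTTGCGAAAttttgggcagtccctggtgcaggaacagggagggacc
C1qb: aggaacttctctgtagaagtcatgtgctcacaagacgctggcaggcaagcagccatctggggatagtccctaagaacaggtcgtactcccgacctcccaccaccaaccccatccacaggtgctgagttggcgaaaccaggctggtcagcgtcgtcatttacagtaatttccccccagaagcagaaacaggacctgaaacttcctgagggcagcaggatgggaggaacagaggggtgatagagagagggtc
C1s1: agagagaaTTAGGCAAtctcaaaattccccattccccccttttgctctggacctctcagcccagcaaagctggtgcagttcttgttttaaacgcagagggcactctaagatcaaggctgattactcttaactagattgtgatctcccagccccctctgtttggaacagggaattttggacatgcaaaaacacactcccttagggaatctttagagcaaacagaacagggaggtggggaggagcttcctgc
The match in C3 begins 45 bases before the start, and that in C1s1, read on the other strand, 242 bases before it. C1s1 has a second start in the table, whose window holds no match. The windows of C1qc and C1ra, also searched but not shown, hold no match either. The C/EBP motif was found in 9.56% of 32851 promoter windows of this length. The STAT motif TTCNNNGAA, searched on both strands, was found in 7.02% of these windows and the TATA box TATAAA, searched as written, in 7.59%. Neither was found in these 3 sequences. A match is a description of letters, not of binding.

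Pancreas libraries held 14188832 to 17238919 counts on genes and adipose libraries 20825177 to 27928097. The 9 genes together took 640 to 2252 counts per pancreas library and 48810 to 144612 per adipose library. Levels are given as CPM, which are counts brought to a common library total, with edgeR's TMM factors computed within each tissue unless a joint scale is named. A list of 24 acinar secretory genes made up 70.4% to 72.3% of the counts in control pancreas and 54.9% to 58.0% in OA-AP pancreas. The adipose library of control replicate 2 stood apart, with 0.944% of its counts on these acinar genes against 0.000970% to 0.00187% in the other adipose libraries. Pancreas control replicate 1 had a higher level than control replicate 2 of each of the 9 genes, by 1.56 to 3.44 times. Its summed CPM was also higher for the 8 fibroblast markers (170 against 100.3), the 10 macrophage markers (40.8 against 21.4) and the 4 mesothelial markers (17.6 against 8.97). The same held for monocyte (5.15 against 2.79), adipocyte (4.98 against 4.79) and T and B cell markers (0.772 against 0.299). Its sum was lower for endothelial (49.1 against 68.9), neutrophil (1.03 against 1.89), hepatocyte (13.9 against 15.4) and acinar secretory markers (889175 against 1.04e+06). The part of these cell types in the difference between the controls was not tested.

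Per length, C3 led in both tissues. C3 is the protein on which all complement pathways meet, and in control adipose tissue it reached 394 ± 148 CPM per kilobase of gene length (SD, n = 3). C4b followed with 213 ± 45.0, C1qa with 146 ± 36.9 and C1qb with 136 ± 27.6 CPM per kilobase. C1s1 (78.9 ± 5.69), C1qc (66.9 ± 15.5), C1ra (44.4 ± 5.57), C2 (19.0 ± 5.35) and Cfb (1.56 ± 0.520) were lower. The ranges of C4b and C1qa, of C1qa and C1qb, and of C1s1 and C1qc overlapped between neighbours in this order, and the other neighbours did not overlap. In control pancreas, where the spread of 2 libraries is wide, the order was C3 (10.5 ± 6.88 CPM per kilobase, SD, n = 2), C1qa (8.46 ± 2.62), C1qb (6.39 ± 2.56), C1qc (3.71 ± 1.74), C1s1 (3.08 ± 1.15), C4b (1.95 ± 1.27), C1ra (1.84 ± 0.571), C2 (0.286 ± 0.222) and Cfb (0.0480 ± 0.0180). There, only C1ra and C2, and C2 and Cfb, were neighbours without overlap. By its mean, C4b thus stood directly after C3 in adipose tissue and after the C1q chains and C1s1 in the pancreas. The places of C2 and Cfb in both orders are limited by the shared bases described above.

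**Figure D1:**
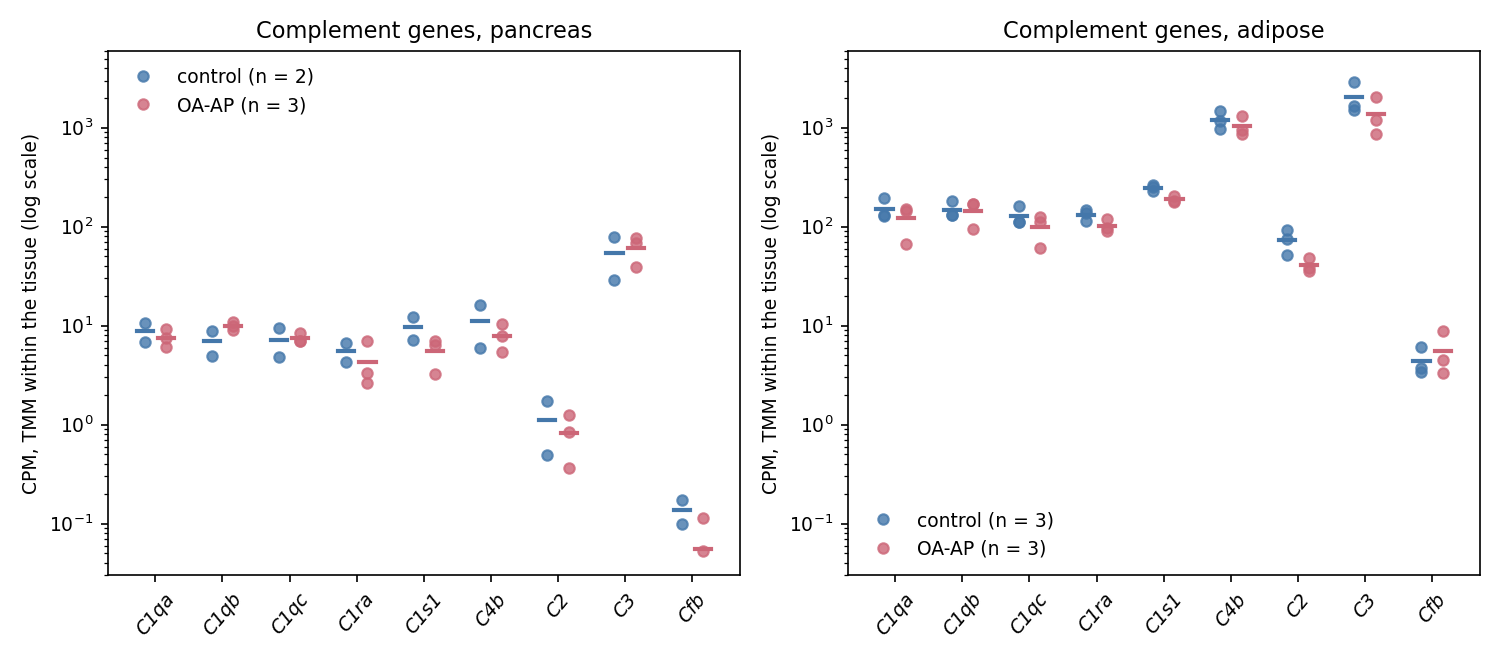
Level of each complement gene in every library, as CPM scaled within the tissue on a log axis, for pancreas (left) and adipose tissue (right). Points are libraries and bars are group means. OA-AP pancreas replicate 3 had 0 counts of Cfb and has no point. Control and OA-AP points overlap for most genes, and C2 and C1s1 in adipose tissue have every OA-AP point under the control points.

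The difference between the tissues was large. On a joint scale of all 11 libraries, 9 of 9 genes were higher in control adipose tissue than in control pancreas by edgeR's quasi-likelihood test (adjusted p under 0.05 with a 1.5-fold or larger difference). Of the 17046 genes in this comparison 55.5% were called, 29.4% higher and 26% lower, and the median log2 fold change was 2.69 for the 9 genes and 0.22 for all genes. C4b, a substrate of C1s, had 523, 790 and 620 joint CPM in the adipose controls and 34.2 and 12.4 in the pancreas controls. Its fold of 27.5 (log2 fold change 4.78, SE 0.47, adjusted p = 6.77e-06) was the highest of the 9. C2, the other C1s substrate, had 27.8, 49.7 and 39.8 joint CPM in adipose tissue and 3.62 and 1.03 in the pancreas, a fold of 16.3. C3 had 885, 809 and 1545 joint CPM against 167 and 60.5, a fold of 9.46. The proteases were nearer to each other, with folds of 6.08 for C1ra and 6.48 for C1s1, and the C1q chains were lowest, with 4.36 for C1qa, 5.36 for C1qb and 4.54 for C1qc. Cfb was 7.99-fold higher, on only 1 to 2 counts in the pancreas controls, and lost its call without pancreas control replicate 1 (adjusted p = 0.0505) or replicate 2 (adjusted p = 0.0716). Scaling by library totals alone moved the median of all genes by 2.45 on the log2 scale toward adipose tissue, so each fold is relative to the scaling. The 9 genes were higher in adipose tissue under each of the scalings tried.

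In the pancreas, OA-AP moved none of the 9 genes past the test. Of these, 8 passed the filter on low counts. edgeR called 0 of 8 higher and 0 of 8 lower, while 29.8% of the 12884 tested genes were called, 16.2% higher and 13.5% lower. An unadjusted p under 0.05 was found for 0 of the 8 and for 5775 of the 12884 tested genes, and DESeq2 called 0. The median log2 fold change of the 8 genes was −0.29, against 0.04 for all tested genes. Library totals alone moved the median of all genes by 0.71 upward and turned 4 of the 5 negative values, those of C1qa, C1ra, C2 and C4b, to positive ones, so no direction is read for these genes.

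Among the C1q chains, C1qb had 8.92 and 4.99 CPM in the control pancreas and 10.9, 10.01 and 8.94 CPM in the OA-AP pancreas. The OA-AP libraries lay just above the higher control, and the difference did not pass the test (log2 fold change 0.51, 95% interval −0.09 to 1.10, adjusted p = 0.163 from edgeR). It was called higher with library totals alone (log2 fold change 1.21, adjusted p = 0.00909). C1qa had 10.7 and 6.88 CPM in controls and 7.46, 9.21 and 6.01 CPM in OA-AP libraries, with overlapping groups (log2 fold change −0.23, interval −0.83 to 0.38). C1qc had 9.52 and 4.79 CPM in controls and 6.98, 7.04 and 8.52 CPM in OA-AP libraries, all of these between the controls (log2 fold change 0.06, interval −0.61 to 0.73). Of the proteases, C1s1 had 12.2 and 7.08 CPM in controls and 6.35, 6.92 and 3.24 CPM in OA-AP libraries. The groups did not overlap, and the difference missed the threshold (log2 fold change −0.81, interval −1.65 to 0.03, adjusted p = 0.121). C1s1 was called lower without the filter on low counts (log2 fold change −0.74, adjusted p = 0.0151). By edgeR or DESeq2, its highest adjusted p among the alternatives that kept every library was 0.860. Its raw counts overlapped, with 142 and 71 in controls and 121, 121 and 62 in OA-AP libraries, so the separation depends on the scaling. C1ra had 6.69 and 4.29 CPM against 3.31, 6.98 and 2.61 CPM, with OA-AP replicate 2 above both controls (log2 fold change −0.36, interval −1.39 to 0.66).

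Of the convertase genes, C3 had 79.3 and 29.2 CPM in the controls and 68.5, 76.9 and 39.1 CPM in the OA-AP libraries, which all lay between the controls. Its log2 fold change of 0.18 had a 95% interval of −1.02 to 1.37. C4b had 16.2 and 5.98 CPM in controls and 7.82, 10.4 and 5.44 CPM in OA-AP libraries (log2 fold change −0.51, interval −1.56 to 0.55). C2 had 5 to 22 counts per library, or 1.72 and 0.499 CPM against 0.840, 1.26 and 0.366 CPM (log2 fold change −0.46, interval −2.03 to 1.11). Cfb had 2 and 1 counts in controls and 1, 2 and 0 in OA-AP libraries and was not tested. The result depended on which control was kept, since the median log2 fold change of the 8 genes was 0.53 without control replicate 1 and −0.57 without control replicate 2. In either case 0 of 8 genes were called.

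In adipose tissue, C2 fell and no gene rose. Of the 9 tested genes edgeR called 1 lower and 0 higher, while 25.1% of the 15839 tested genes were called, 13% lower and 12.1% higher. An unadjusted p under 0.05 was found for 3 of the 9 genes, all lower, and for 7515 of the 15839 tested genes, and DESeq2 also called 1 lower and 0 higher. The fold changes of 8 of the 9 genes were negative under each scaling, and their median was −0.38 against −0.01 for all tested genes. Library totals alone moved the median of all genes downward by 0.15.

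C2 had 52.1, 93.5 and 74.6 CPM in the adipose controls and 47.9, 38.0 and 36.1 CPM in the OA-AP libraries. Every OA-AP library lay under every control, by a narrow margin for OA-AP replicate 1. The log2 fold change was −0.85 (SE 0.22, adjusted p = 0.0234), a fall of 1.8 times. The call depended on single libraries. It was lost without control replicate 2 (adjusted p = 0.0527), control replicate 3 (0.0703), OA-AP replicate 2 (0.0617) or OA-AP replicate 3 (0.0726). It was kept without control replicate 1 or OA-AP replicate 1. Log2 fold changes ran from −1.04 to −0.63 over all 6 removals. The read-through annotation described above also limits the level of C2.

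Neither C1 protease was called in adipose tissue. C1s1 had 227, 252 and 262 CPM in controls and 182, 206 and 177 CPM in OA-AP libraries, with no overlap between the groups. Its log2 fold change was −0.39 (SE 0.11, adjusted p = 0.0292), a fold of 1.31, under the 1.5 asked of a call. C1ra had 114, 136 and 146 CPM in controls and 119, 96.5 and 89.4 CPM in OA-AP libraries, where OA-AP replicate 1 was above control replicate 1 (log2 fold change −0.38, adjusted p = 0.0728, over the threshold). The ratio of C1s1 to C1ra counts was 1.79 to 1.99 in controls and 1.53 to 2.14 in OA-AP libraries, with overlap.

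C3 was the most abundant in every group and varied widely. It had 1660, 1522 and 2901 CPM in controls and 2046, 1204 and 861 CPM in OA-AP libraries, and OA-AP replicate 1 exceeded 2 of the controls. The log2 fold change of −0.57 had a 95% interval of −1.46 to 0.33 (adjusted p = 0.277). C4b had 980, 1487 and 1164 CPM in controls and 954, 1312 and 856 CPM in OA-AP libraries (log2 fold change −0.22, interval −0.73 to 0.30). Cfb had 3.69, 6.10 and 3.44 CPM in controls and 3.32, 8.89 and 4.44 CPM in OA-AP libraries, and was the only gene of the 9 with a positive value (log2 fold change 0.34, interval −0.62 to 1.29). It turned negative without OA-AP replicate 2.

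The C1q chains had the same highest and the same lowest library in adipose tissue. C1qa had 130, 196 and 129 CPM in controls and 67.3, 151.5 and 145 CPM in OA-AP libraries. C1qb had 129.8, 182 and 131 CPM in controls and 94.7, 169 and 170.2 CPM in OA-AP libraries. C1qc had 113, 164 and 111 CPM in controls and 61.6, 111 and 126 CPM in OA-AP libraries. For each chain these were control replicate 2 and OA-AP replicate 1. The log2 fold changes were −0.32 (interval −1.10 to 0.46), −0.03 (−0.63 to 0.56) and −0.38 (−1.05 to 0.30), none of which passed the test.

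**Figure D2:**
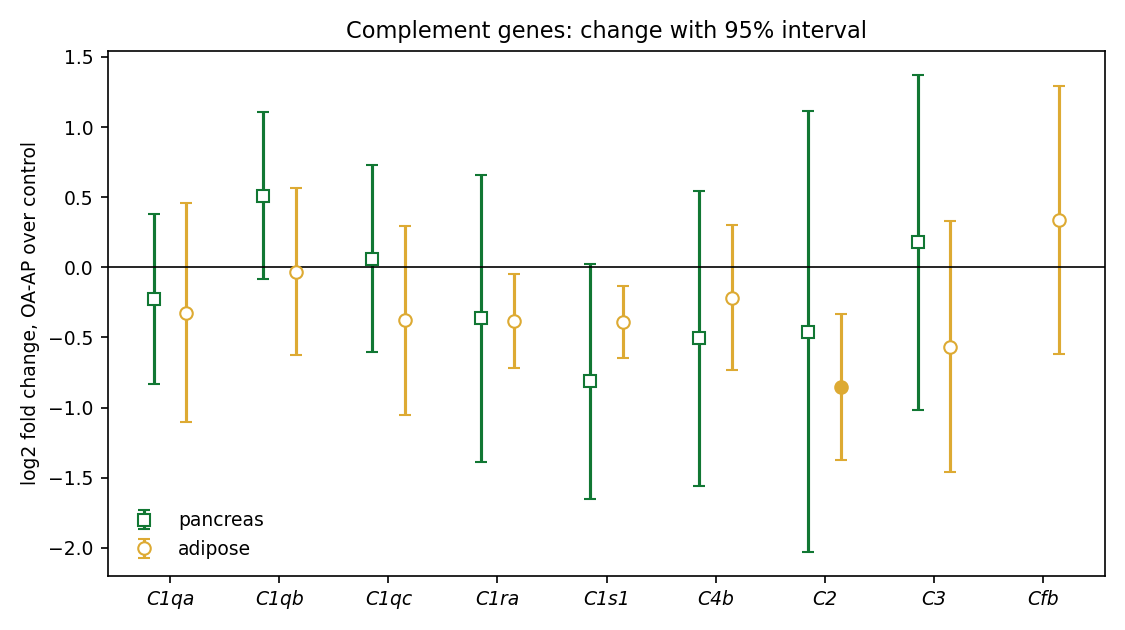
Log2 fold change of OA-AP over control for each complement gene in the pancreas (squares) and adipose tissue (circles), with 95% intervals from edgeR's quasi-likelihood fit. Filled symbols passed the test. Only C2 in adipose tissue is filled, at −0.85, and Cfb was not tested in the pancreas. With library totals alone the pancreas values of C1qa, C1ra, C2 and C4b turn positive.

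Markers of other cell types moved in the same adipose libraries. The summed CPM of 8 fibroblast markers was 3531 to 4368 in controls and 2100 to 2732 in OA-AP libraries, and 5 of the 8 were called lower. That of 10 macrophage markers was 554 to 691 in controls and 633 to 1014 in OA-AP libraries, with 4 called higher and 1 lower. That of 7 neutrophil markers was 6.90 to 12.8 in controls and 179 to 197 in OA-AP libraries, and 6 of 6 tested were called higher. The 4 mesothelial markers summed to 221 to 584 CPM in controls and 123 to 331 in OA-AP libraries, with 0 of 4 called. The 6 adipocyte markers summed to 12182 to 14512 CPM and 11101 to 12189 CPM, with 1 called higher (Lep) and 1 lower (Plin1). Monocyte markers summed to 80.7 to 96.0 CPM in controls and 205 to 352 CPM in OA-AP libraries, with 2 of 4 called higher, and the 4 endothelial markers to 822 to 941 and 952 to 1402 CPM, with 0 called. The T and B cell markers summed to 4.35 to 24.1 CPM in controls and 1.56 to 2.47 CPM in OA-AP libraries, with 3 of 3 tested called lower. The 8 hepatocyte markers summed to 17.0 to 21.8 CPM in all adipose libraries, with 1 of 3 tested called higher (Ahsg). No marker of these lists was at 0 in every adipose library. The part of these cell types in the values of the 9 genes was not tested. Adipocyte markers were high in all adipose libraries and acinar genes in all pancreas libraries.

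Whether the change differed between the tissues was tested on the tissue by condition term. edgeR called 0 of 9 genes at an adjusted p under 0.05, with 0 at an unadjusted p under 0.05, and DESeq2 called 0, while 21.3% of the 17046 tested genes were called and 5736 had an unadjusted p under 0.05. The median over the 9 genes was −0.10 and that over all genes −0.06 (log2, adipose change minus pancreas change). The intervals were wide. That of C3 ran from −2.23 to 0.73, that of C1s1 from −0.40 to 1.24 and that of C2 from −1.85 to 1.11, so the fall of C2 in adipose tissue was not shown to be particular to that tissue.

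Ratios within a library do not depend on the scaling of libraries, and they showed a pattern that was chosen after its values were seen. C1qb took a larger share of the counts of the 3 C1q chains in each OA-AP library than in any control of the same tissue. In the pancreas it was 30.6% (95% Clopper-Pearson interval 25.7% to 35.8%) and 29.9% (23.1% to 37.5%) in the controls, and 43.1% (38.6% to 47.6%), 38.1% (33.7% to 42.7%) and 38.1% (33.6% to 42.8%) in the OA-AP libraries. In adipose tissue, where 4312 to 12797 counts stood behind each share, it was 34.8%, 33.6% and 35.3% in controls and 42.3%, 39.2% and 38.6% in OA-AP libraries. These adipose intervals were at most 36.2% at their upper end in controls and at least 37.6% at their lower end in OA-AP libraries. These intervals treat each count as an independent molecule and leave out the spread between libraries. No molecular identifiers tell apart copies of the same molecule, so they may be too narrow even for counting error. Within the OA-AP adipose group, the interval of replicate 1 (40.9% to 43.8%) lay above those of replicate 2 (38.2% to 40.2%) and replicate 3 (37.6% to 39.6%). The groups did not overlap in either tissue, and the two-sided exact permutation p was 0.1 in each, the smallest these designs allow (adjusted p = 0.28 over the 14 ratios tested).

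The other chains filled the remainder in different ways. In adipose tissue C1qc was 29.9% to 30.2% of the C1q counts in controls and 25.7% to 28.5% in OA-AP libraries, without overlap, while C1qa overlapped at 34.7% to 36.2% and 30.1% to 35.1%. In the pancreas C1qa was 36.8% and 41.3% in controls and 29.4%, 35.1% and 25.6% in OA-AP libraries, without overlap, while C1qc overlapped. A second ratio separated the groups in the pancreas alone. C3 had 4.89 and 4.88 times the counts of C4b in the controls, although the levels of both genes differed 2.71-fold between these libraries, and 8.76, 7.43 and 7.19 times in the OA-AP libraries (two-sided exact permutation p = 0.1, adjusted p = 0.28). In adipose tissue the C3 to C4b ratio was 1.02 to 2.49 in controls and 0.918 to 2.14 in OA-AP libraries, with overlap.

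**Figure D3:**
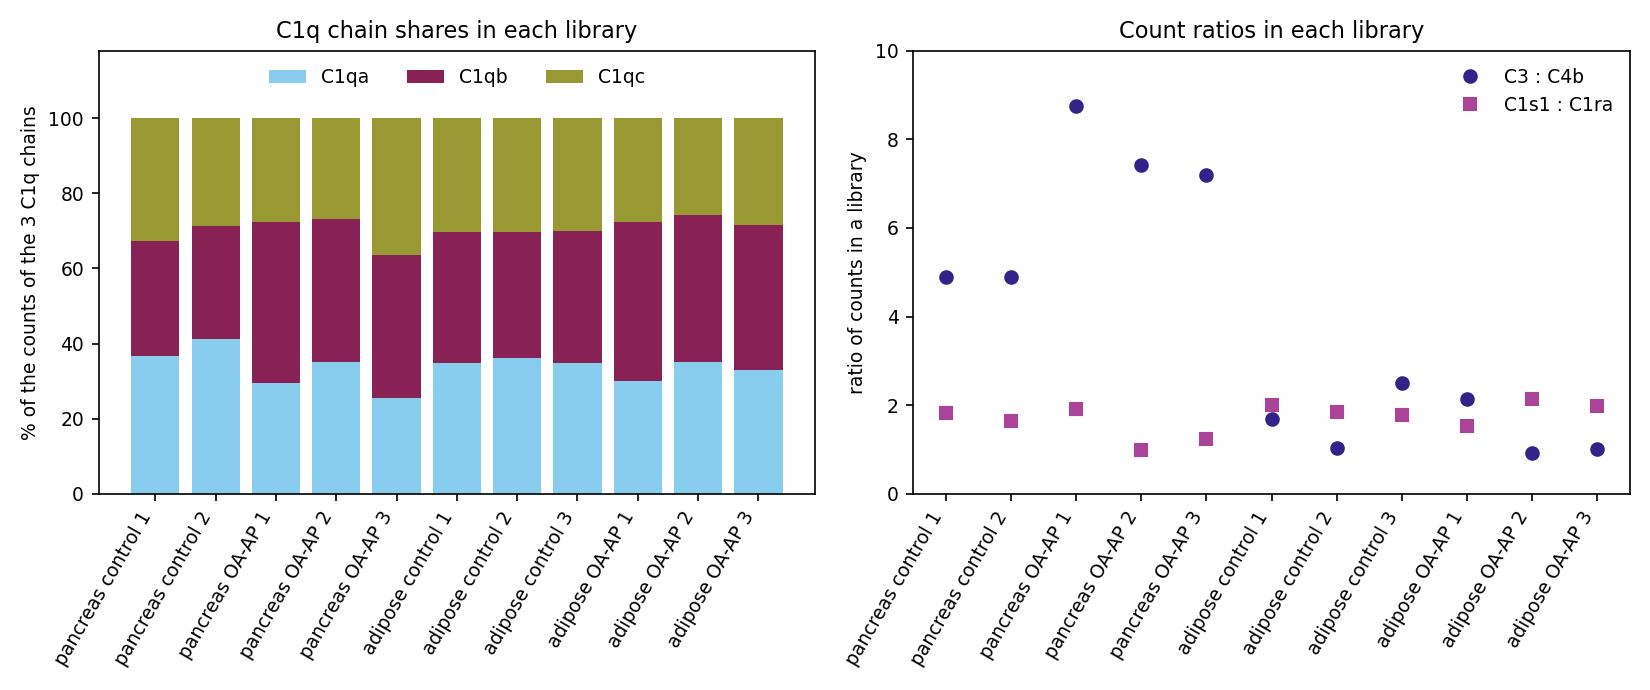
Left, share of each chain in the counts of C1qa, C1qb and C1qc in each of the 11 libraries, in percent. Right, ratio of C3 to C4b counts (circles) and of C1s1 to C1ra counts (squares) in the same libraries. The C1qb share is 29.9% to 35.3% in control libraries and 38.1% to 43.1% in OA-AP libraries, and the C3 to C4b ratio is above 7 only in the OA-AP pancreas.

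Beyond these 9 genes, 45 other genes of complement were listed by role. In the pancreas 19 were tested, with 2 called higher and 4 lower, and in adipose tissue 31 were tested, with 2 called higher and 8 lower. Their log2 fold changes had a median of 0.07 for the pancreas and −0.26 for adipose tissue. The shares of all genes called higher and lower are those given above for each tissue.

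Of the receptors, 1 was called higher and 1 lower of 4 tested in the pancreas, and 2 higher and 0 lower of 8 tested in adipose tissue. C5ar1, the C5a receptor, rose in both tissues. It had 5 and 2 counts in the pancreas controls and 22, 19 and 54 in the OA-AP pancreas (0.429 and 0.199 against 1.16, 1.09 and 2.82 CPM; log2 fold change 2.37, adjusted p = 0.0340). In adipose tissue it had 19.4, 28.3 and 19.3 CPM in controls and 49.7, 37.8 and 63.3 CPM in OA-AP libraries (log2 fold change 1.17, SE 0.23, adjusted p = 0.00882). The pancreas call was lost without control replicate 1 (adjusted p = 0.111), control replicate 2 (0.198) or OA-AP replicate 1 (0.0525). C3ar1, the C3a receptor, missed the threshold in adipose tissue with 20.1, 30.3 and 17.2 CPM against 31.2, 33.1 and 47.6 CPM (log2 fold change 0.73, adjusted p = 0.0589), while DESeq2 gave an adjusted p of 0.0191. Of the 2 chains of complement receptor 3, Itgam rose in adipose tissue from 62.4 to 71.0 CPM in controls to 143 to 169 CPM in OA-AP libraries (log2 fold change 1.24, adjusted p = 0.000537). Its partner chain Itgb2 fell in the pancreas from 9.44 and 9.17 CPM to 2.57, 2.00 and 5.81 CPM (log2 fold change −1.42, adjusted p = 0.0361). This call was lost without either control, without OA-AP replicate 1 and with library totals alone. In the pancreas Itgam had a positive value that was not called (log2 fold change 1.32, adjusted p = 0.0978 from edgeR). In adipose tissue Itgb2 was not called either (log2 fold change 0.41, adjusted p = 0.114). Neutrophils and macrophages carry these receptors, and the rise of the neutrophil markers in adipose tissue is given above. In the pancreas, the 7 neutrophil markers summed to 1.03 and 1.89 CPM in controls and 13.0, 3.60 and 101 CPM in OA-AP libraries, with 0 of 6 tested called. The 10 macrophage markers there summed to 40.8 and 21.4 CPM in controls and 32.8, 31.9 and 35.5 CPM in OA-AP libraries. Of these, 8 were tested, with 0 called higher and 2 lower. The part of these cells in the receptor values was not tested.

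In adipose tissue 1 of 2 tested genes of the alternative pathway and 2 of 4 of the lectin pathway were called lower. Cfd, the adipocyte-made protease that activates the alternative pathway, had 12736, 10673 and 14036 CPM in controls and 8798, 2858 and 4469 CPM in OA-AP libraries, without overlap (log2 fold change −1.22, SE 0.40, adjusted p = 0.0489). Its call was kept only without OA-AP replicate 1 and lost in the other 5 of the 6 removals of a library, with adjusted p from 0.0576 to 0.137, and without the filter on low counts (0.143), while the log2 fold change lay between −1.76 and −0.91 over the removals. Cfp, or properdin, which stabilises the alternative convertase, had 61.0, 99.1 and 68.3 CPM against 45.6, 48.6 and 67.2 CPM and was not called (log2 fold change −0.50, adjusted p = 0.119). Of the lectin pathway, Colec11 fell from 2.03, 2.80 and 2.45 CPM to 0.570, 0.433 and 0.455 CPM (log2 fold change −2.31, adjusted p = 0.00134). Fcna, a ficolin of macrophages, fell from 32.6, 62.7 and 50.9 CPM to 19.5, 15.1 and 27.4 CPM (log2 fold change −1.24, adjusted p = 0.0188), a call lost without control replicate 3 (adjusted p = 0.0564) and without the filter on low counts (0.0554). Both had a value under every control in each OA-AP library.

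Of the terminal components that build the membrane attack complex, C7 was called in opposite directions in the tissues. In the pancreas it had 0 counts in both controls and 72, 35 and 29 counts in OA-AP libraries, at least 8.75-fold higher against a floor of 3 counts per control library (adjusted p = 0.00330). In adipose tissue it had 123, 122 and 109 CPM in controls and 30.2, 86.0 and 32.1 CPM in OA-AP libraries (log2 fold change −1.25, adjusted p = 0.0488). The 6 adipocyte markers summed to 4.98 and 4.79 CPM in the control pancreas and 11.8, 11.8 and 11.5 CPM in the OA-AP pancreas. Of these, 1 of 1 tested was called higher (Lipe), while each of the other 5 had 0 to 4 counts in every pancreas library. The mesothelial markers summed there to 17.6 and 8.97 CPM in controls and 5.83, 8.12 and 0.575 CPM in OA-AP libraries. The fibroblast markers summed to 170 and 100.3 against 117, 137 and 82.6 CPM. The part of these cell types in the C7 values was not tested. The adipose call was kept only without OA-AP replicate 2 and lost in the other 5 of 6 removals of a library (adjusted p from 0.0954 to 0.119) and without the filter on low counts (0.188), and the pancreas call was lost in 0 of 5. C8g fell in adipose tissue by 0.68 on the log2 scale (adjusted p = 0.0300), a call kept only without OA-AP replicate 3 and lost in the other 5 of 6 removals (adjusted p from 0.0522 to 0.0864). Hc, which encodes C5, had 0 counts in all 5 pancreas libraries, which allows up to 3 counts in each, and 1 to 7 in adipose libraries.

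No regulator was called higher in either tissue. In the pancreas 2 of 5 tested soluble regulators and 1 of 4 tested membrane regulators were called lower, and in adipose tissue 1 of 5 and 2 of 7. Of all tested genes, 16.2% were called higher and 13.5% lower in the pancreas, and 12.1% and 13% in adipose tissue. With so few regulators tested, the absence of a higher call is not read as a result about them. Serping1, the C1 inhibitor, had 352.5, 449 and 429 CPM in adipose controls and 386, 572 and 372 CPM in OA-AP libraries, and 16.4 and 9.07 against 13.7, 16.6 and 9.94 CPM in the pancreas, with overlap in both. Cfi, the protease that inactivates C3b, had 3 to 7 counts per pancreas library and 3 to 21 per adipose library. Vtn, which blocks insertion of the terminal complex, fell in both tissues, with a log2 fold change of −1.32 in the pancreas (adjusted p = 0.00938) and −1.48 in adipose tissue (SE 0.13, adjusted p = 0.000537). Its pancreas call was lost without either control (adjusted p = 0.0811 and 0.0625) and with library totals alone (0.0518), and its adipose call was lost in 0 of 6 removals. Cpn1, the catalytic chain of the carboxypeptidase that inactivates C3a and C5a, fell in the pancreas from 44.2 and 43.7 CPM to 8.19, 8.58 and 12.1 CPM (log2 fold change −2.19, SE 0.19, adjusted p = 0.000229). Cd59a, the membrane inhibitor of the terminal complex, fell in the pancreas from 5.06 and 4.29 CPM to 0.893, 1.20 and 0.418 CPM (log2 fold change −2.48, adjusted p = 0.00404), a call lost without control replicate 1 (adjusted p = 0.0505). In adipose tissue Susd4 fell by 1.71 and Cd46 by 0.63 on the log2 scale (adjusted p = 0.00981 and 0.0129), and the Cd46 call was lost without control replicate 3 (adjusted p = 0.0604), without OA-AP replicate 3, where the fold was under 1.5, or with a fold threshold of 2.

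**Figure D4:**
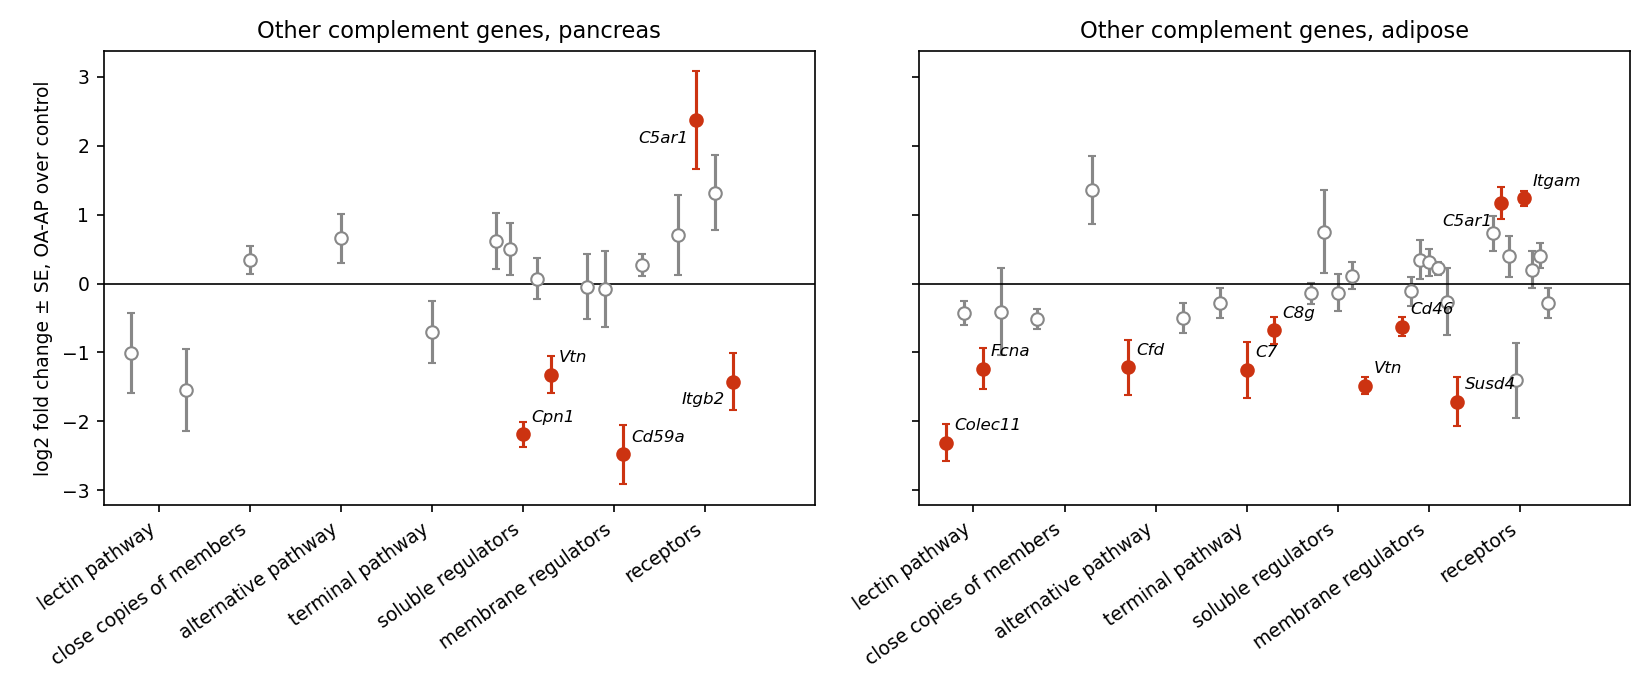
Log2 fold change of OA-AP over control, with its standard error, for the tested genes of complement outside the main 9, grouped by role, in the pancreas (left) and adipose tissue (right). Filled points with names passed the test and open points did not. C7 in the pancreas is not drawn because its controls had 0 counts. C5ar1 lies above 0 in both panels, and most named adipose genes lie below 0; with library totals alone the pancreas panel would sit 0.71 higher.

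The genes whose pattern was most like that of each complement gene were found over all 11 libraries, as the smallest root mean square difference of gene-centred log2 CPM among 17045 other genes. This measure is a description, and the difference between the tissues, which the 9 genes share, enters it. For C1qc they were Cd86 (0.21), Stab1 (0.24) and C1qb (0.25). For C1qb they were Tlr3 (0.21), Pea15a (0.22) and Mdfic (0.23), and for C1qa they were Meox1 (0.24), Ndn (0.24) and C1qc (0.25). The smallest difference of all was that of C1s1 to Zeb1 (0.14), followed by Tnxb (0.17) and Hoxa5 (0.19). Zeb1 was also nearest to C1ra (0.27), before Pkia and Amigo2 (both 0.29). C3 was nearest to Aebp1 (0.25), C4b to Enpp2 (0.29), C2 to Arhgap42 (0.36) and Cfb to Plekha2 (0.40). No complement gene of the 9 was among the 3 nearest genes of C1ra, C1s1, C2, C3, C4b or Cfb.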

How the data were processed

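RNA of 11 libraries was analysed, from pancreas (2 control, 3 OA-AP) and epididymal adipose tissue (3 control, 3 OA-AP). The authors trimmed paired-end reads with Trim Galore 0.6.6, checked them with fastp 0.20.1, aligned them to GRCm38 using STAR and assigned them to genes by featureCounts 2.0.1, and the authors deposited whole-number counts without normalization. The annotation release and strand setting are not given in the sources used here. Without a strand setting, antisense reads cannot be told apart. The deposited gene length of the pancreas table gave CPM per kilobase in both tissues.

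Here, genes were filtered with filterByExpr, scaled with TMM and tested per tissue with the quasi-likelihood test (robust) of edgeR 4.0.16 in R 4.3.3, adjusted by Benjamini-Hochberg over all tested genes. A call needed an adjusted p under 0.05 with a 1.5-fold or larger change, and the tissue by condition term an adjusted p under 0.05. All 11 libraries entered 1 joint fit for the tissue contrasts. SE was the absolute log2 change over the root of F. Likeness used log2 CPM with a prior count of 2. Where both controls had 0 counts, a fold is a bound against 3 counts. DESeq2 1.42.0, other scalings and filters, other fold thresholds, removal of each library and a replicate block were alternatives. Tests were tried on simulated data. The 9 genes and the gene lists were chosen with earlier results of these data known. Other complement genes were named as a fixed set of 8, of which 1 is not reported here, plus, in each role, up to 4 called in either tissue with the smallest adjusted p. Counts of replicates differed by more than counting noise (lowest chi-square per degree of freedom 7.56).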

Additional observations from a re-analysis of the deposited data

Results flagged for a closer look

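By the test of the tissue by condition term, 0 of the main 9 genes and 5 of 32 tested other complement genes were called as changing differently in the 2 tissues, while 21.3% of all 17046 tested genes were (edgeR, adjusted p under 0.05, values as log2 of the adipose change minus the pancreas change). Groups had at most 3 libraries, too few for a test of single outlying values. C7 had a fitted difference of −11.37 (adjusted p = 0.0100). Both pancreas controls of C7 had 0 counts, so the size of this fitted value depends on the prior count and is no bound, while the direction follows from the opposite calls in the tissues. Cd59a differed by 2.84 (SE 0.54, adjusted p = 0.00417), having fallen in the pancreas and having a value of 0.35 in adipose tissue. Cd59b, its near copy, differed by 4.16 (adjusted p = 0.00704), with 7 and 5 counts in the pancreas controls and 0, 2 and 0 in the OA-AP pancreas. Reads of Cd59a and Cd59b can be split or lost in counting. Itgb2 differed by 1.81 (SE 0.47, adjusted p = 0.0185). C1rl, a gene related to C1ra, differed by −0.86 (SE 0.26, adjusted p = 0.0374). It had 25.3 and 21.4 CPM in pancreas controls and 30.9, 35.4 and 22.8 CPM in the OA-AP pancreas. In adipose tissue it had 21.3, 17.8 and 19.8 CPM in controls and 13.4, 16.2 and 11.7 CPM in OA-AP libraries. Cd59b and C1rl were named after their values were seen.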

How the results depend on the processing

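Of the 602 values of the main 9 genes under an alternative, 559 kept their direction and their side of the threshold, 8 lost a call, 5 gained one and 30 turned direction, none of these last in control adipose tissue against control pancreas. For the other named complement genes, 287 of 329 values kept both, 35 lost a call, 3 gained one and 4 turned. The cause of these changes was not tested. In the pancreas, 1 of the 9 genes instead of 0 was called with library totals alone (C1qb), 1 without the filter on low counts (C1s1) and 1 with the replicate block (C1qb), and 0 in each removal of a library. In adipose tissue 2 were called with no fold threshold and 0 with a fold of 2 or with the replicate block (C2, adjusted p = 0.0591), and 0 to 1 when a library was left out. The tissue by condition term called 1 gene with library totals alone (C1qb, −1.38). Of the 45 other genes, the pancreas fit called 10 instead of 6 with library totals alone, 3 with 10 counts asked of every library and 2 to 7 when a library was left out, and the adipose fit called 5 to 9 instead of 10. Left without 1 library, log2 fold changes in the pancreas ran from −0.50 to 0.14 for C1qa, −0.34 to 0.66 for C1qc, −0.90 to 0.0065 for C1ra, −1.06 to 0.71 for C2, −0.36 to 1.08 for C3, −1.04 to 0.40 for C4b and −0.29 to 0.57 for Serping1. In adipose tissue they ran from −0.16 to 0.21 for C1qb, −0.17 to 0.65 for Cfb and −0.11 to 0.23 for Serping1. The tissue differences ran from −0.47 to 0.19 for C1qa, −0.40 to 0.50 for C1ra, −0.043 to 0.76 for C1s1, −1.57 to 0.23 for C2 and −0.63 to 0.83 for C4b. With library totals alone the pancreas values became 0.48 for C1qa, 0.34 for C1ra, 0.24 for C2 and 0.18 for C4b, the adipose value of Serping1 −0.033, and the tissue differences −0.43 for C1s1 and −0.54 for C4b. That of C1ra became 0.0042 with DESeq2 size factors and 0.13 with same-numbered tissues taken as 1 mouse, an alternative chosen after seeing the data. C2 and Cfb were left out of the joint fit, and C2 of the pancreas fit, when 10 counts were asked of every library.

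Replicate numbers recur in the groups, but same-numbered libraries did not deviate together (correlations from −0.16 to 0.090), so they were not taken as pairs. The replicate block moved the number of genes called among all tested from 3834 to 4099 in the pancreas and from 3981 to 3477 in adipose tissue. Groups of 2 or 3 libraries, and the 640 to 2252 counts of these genes per pancreas library, limit the precision.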
